A study of Rattus norvegicus with 90 samples.

Results

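Aminoacyl-tRNA synthetases are the enzymes that join each amino acid to its transfer RNA. Their genes were followed here in the rat cell line AR42J, which comes from an acinar tumour of the pancreas, after treatment with the peptide hormone gastrin, with the translation inhibitor cycloheximide, or with both. The list holds 35 genes, and members were found by gene symbol in the probe annotation of the array. The 19 members counted as cytosolic carry names ending in 1, or are Farsa and Farsb, and the 16 mitochondrial members carry names ending in 2. This split follows the name alone, so a gene whose product also serves mitochondria would count as cytosolic. The list holds no gene ending in 2 beside Gars1, Kars1 or Qars1. Probes were found for 28 of the 35 genes, of the 13337 genes that the annotation names. These are 17 of the 19 cytosolic genes, without Farsa and Mars1, and 11 of the 16 mitochondrial genes, without Ears2, Hars2, Iars2, Mars2 and Wars2. Each had 1 probe except Tars1, which had 2, and the brighter one stands for the gene.

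Total RNA was hybridised to Illumina bead arrays, and 90 arrays with 22523 probes each were analysed. Untreated control cells gave 35 arrays, gastrin 34, cycloheximide 9, and gastrin with cycloheximide 10. The remaining 2 arrays, from batch 3 at 12 h, carry labels that contradict each other and entered no comparison. Samples were taken from 0 to 14 h in 6 batches, and gastrin samples were compared with controls that shared their batch and time. Cycloheximide was present only in batches 4 to 6, at 1, 2, 4 and 6 h. Levels are given in the deposited log2 units, and a gene is said to have risen or fallen where limma gave a Benjamini-Hochberg adjusted p under 0.05 over all probes. The labels name batches but not separate cultures, so the p-values reflect only sample-to-sample spread, part of which may be technical.

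In animal cells, the cytosolic synthetases charge the transfer RNAs used by ribosomes of the cytosol, while most mitochondrial ones are separate nuclear-encoded enzymes that serve the ribosomes inside the organelle. Several cytosolic synthetases, among them those for glutamate and proline, isoleucine, leucine, glutamine, arginine and lysine, are bound together in the multisynthetase complex, and the others work outside it. In mammalian cells many cytosolic synthetase genes are known targets of ATF4, a transcription factor of the amino acid and stress response.

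Arrays had nearly the same distribution, with medians from 6.403 to 6.406. Of 13 acinar marker genes with a probe, 11 were brighter than 75% of all probes, against 0 of 6 fibroblast and 0 of 3 immune or endothelial markers, and 3 of 10 neuroendocrine markers. A set of 13 arrays stood apart along an axis defined by the 2 h controls of batches 4 and 5, with a score above 0.25. They were those 2 controls, 8 gastrin arrays between 1 and 12 h in batches 2 and 3, 1 cycloheximide array, 1 array with both agents and 1 array of batch 3 at 12 h that entered no comparison. No control or gastrin array at 4, 6 or 8 h was among them. The probes of Hars1, Pars2 and Fars2 were dimmer than the median probe. Cytosolic members had brighter probes than mitochondrial ones, with median levels of 10.02 and 7.9. Of the 17 cytosolic probes 16 were brighter than 75% of all probes, against 5 of the 11 mitochondrial ones.

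Gastrin raised most cytosolic synthetase genes between 4 and 8 h. Averaged over 4, 6 and 8 h, 13 of 17 cytosolic genes rose and 0 fell, with a median log2 change of 0.44, and of the 11 mitochondrial genes 0 rose and 2 fell, with a median of -0.06. Over all probes, 10.3% passed the test, 4.98% upwards and 5.33% downwards, and the median change was -0.004. Of the 11261 probes brighter than the median probe, tested on their own, 22.6% passed, 1178 upwards and 1363 downwards. With no block for batch and time, 4 cytosolic genes passed, all upwards, beside 0.95% of probes (169 upwards and 45 downwards). In batches 2 and 3 alone, where 16.5% of probes passed, the mitochondrial genes Rars2 and Tars2 rose, by 0.19 and 0.22. Their limma adjusted p-values were 0.00177 and 0.000912. Vars2 and Cars2 passed there as lower, both at -0.23, with limma adjusted p-values of 0.00123 and 0.000892. In bulk RNA, a change in the share of cells that express a gene cannot be told apart from a change in RNA per cell.

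The largest rise was that of Yars1, the tyrosyl-tRNA synthetase. At 4 h its levels in the controls of batches 2 to 6 were 10.99, 11.002, 10.75, 10.55 and 10.24. In the gastrin samples of the same batches they were 11.96, 11.84, 11.10, 10.82 and 11.16. Every gastrin sample was above its own control, while the groups overlapped, since the gastrin sample of batch 5 lay below the controls of batches 2 and 3. Over 4 to 8 h the change was 0.65 ± 0.084 (SE, 11 pairs), or 1.57-fold, with a limma adjusted p of 1.71e-06, and single pairs ranged from 0.12 to 1.06.

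Gars1 encodes the glycyl-tRNA synthetase. Its control levels at 4 h were 11.47, 11.28, 11.32, 11.36 and 10.95 in batches 2 to 6, and its gastrin levels were 12.42, 12.68, 11.74, 11.56 and 11.77. The lowest gastrin sample was above the highest control, at 4 h and again at 6 h, where controls lay between 11.22 and 11.50 and gastrin samples between 11.71 and 12.47. The change over 4 to 8 h was 0.63 ± 0.082, with a limma adjusted p of 1.74e-06. The threonyl-tRNA synthetase gene Tars1 also had groups that did not overlap at 4 h, with controls from 9.82 to 10.04 and gastrin samples from 10.12 to 10.75. Its change over the window was 0.46 ± 0.058, with a limma adjusted p of 1.03e-06. The second and dimmer probe of Tars1 gave 0.08 ± 0.05, with a limma adjusted p of 0.474.

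Cars1, for cysteine, had the largest change of all members at 4 h, 0.90 ± 0.113, with control levels of 8.89, 8.76, 8.58, 8.10 and 8.01 and gastrin levels of 10.05, 10.12, 9.24, 8.59 and 8.85. Its control levels fell into a high and a low range by batch, so the groups overlapped although all pairs were above zero. Nars1, for asparagine, had control levels of 12.32, 12.31, 11.83, 11.69 and 11.90 at 4 h, and gastrin levels of 13.32, 13.28, 12.37, 12.12 and 12.66. Over 4 to 8 h, Cars1 changed by 0.62 ± 0.082 and Nars1 by 0.58 ± 0.069, with limma adjusted p-values of 2.12e-06 and 3.87e-07. Sars1 (serine), Farsb (the beta subunit of the phenylalanyl enzyme) and Aars1 (alanine) rose by 0.44, 0.43 and 0.41. Wars1, for tryptophan, rose by 0.34 ± 0.074 over the window, with a limma adjusted p of 0.00164, but only 7 of its 11 pairs were above zero. The Wars1 value was 0.45 in batches 2 and 3 alone and 0.04 in batches 4 to 6 alone.

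Among the 6 members of the multisynthetase complex, 4 rose and the median change was 0.32, beside 9 of 11 and a median of 0.44 among the other cytosolic genes. Eprs1, the joint enzyme for glutamate and proline, changed by 0.60 ± 0.123, Iars1 (isoleucine) by 0.46 ± 0.058 and Lars1 (leucine) by 0.44 ± 0.051, with limma adjusted p-values of 0.000942, 1.43e-06 and 2.83e-07. Lars1 had the narrowest range of single pairs among the 13 genes that rose, from 0.29 to 0.59. Rars1, for arginine, changed by 0.19 ± 0.051 with a limma adjusted p of 0.0126. The complex members Kars1 (lysine) and Qars1 (glutamine) did not pass, at 0.01 and -0.16. At 4 h the Kars1 controls were at 10.78, 10.81, 10.20, 10.26 and 10.28 and the gastrin samples at 10.77, 10.99, 10.23, 10.34 and 10.21, so the values separated by batch and not by treatment. The Qars1 pairs were below zero in 10 of 11 cases, with a limma adjusted p of 0.0635. Qars1 passed as lower, at -0.17 to -0.16, with the array score as covariate, without the arrays that stood apart, without dim probes and with array weights.

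**Figure D1:**
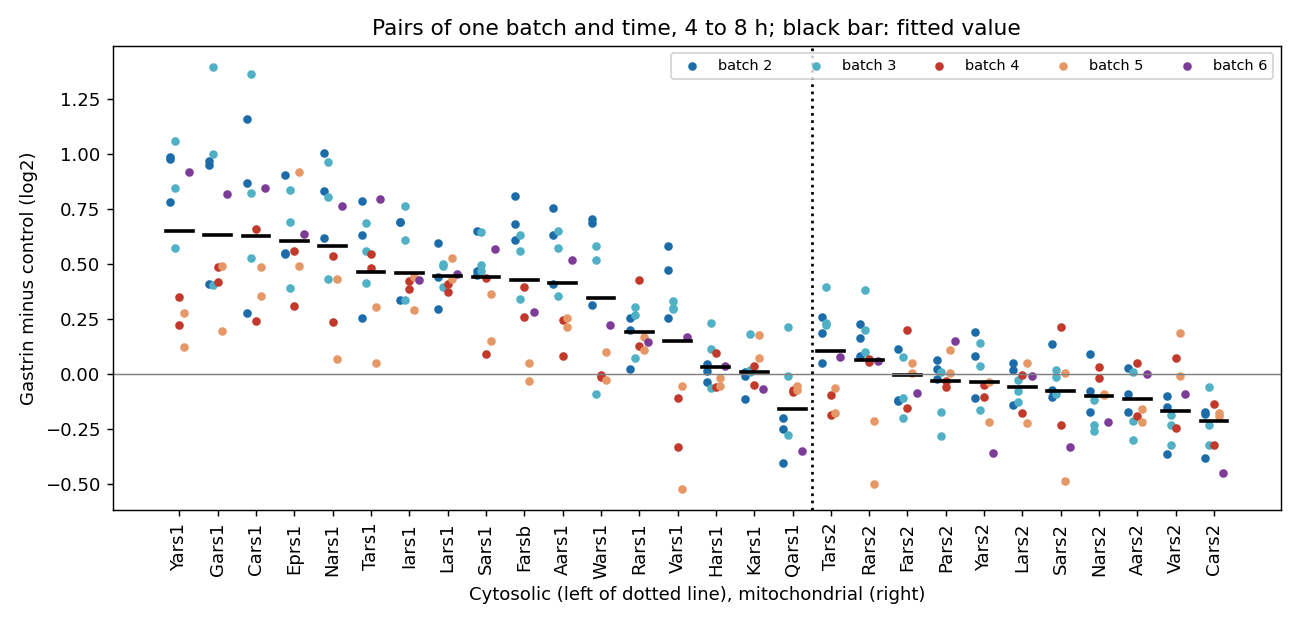
Each point is the gastrin minus control difference of a log2 level in 1 pair of the same batch and time at 4, 6 or 8 h, coloured by batch, for the 28 measured genes in order of the fitted change (black bar). All 11 pairs lie above zero for 11 of the 17 cytosolic genes and for 0 of the 11 mitochondrial genes, and the pairs of batches 2 and 3 tend to lie above those of batches 4 and 5 for cytosolic genes such as Yars1 and Gars1.

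Among mitochondrial genes, Cars2, for cysteine, fell by 0.22 on the log2 scale (SE 0.055, limma adjusted p = 0.00741), and its 11 pairs were all below zero, from -0.45 to -0.06. At 4 h its controls were at 8.28, 8.10, 7.20, 7.49 and 7.66 in batches 2 to 6 and its gastrin samples at 7.90, 7.86, 7.07, 7.30 and 7.21. Its levels differed more between batches than between treatments. Aars2, for alanine, changed by -0.12 ± 0.038, with a limma adjusted p of 0.0448, and 8 of 11 pairs were below zero. At 6 h the Aars2 groups did not overlap, with controls from 7.10 to 7.33 and gastrin samples from 6.92 to 7.03. The other 9 mitochondrial genes had values between -0.17 for Vars2 and 0.10 for Tars2 and did not pass. Of the 11 mitochondrial genes, 0 passed without batch 2 or without batch 3, and 1 without batch 4. In these fits 3.76%, 3.36% and 11.2% of probes passed.

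The promoters of the cytosolic genes were searched because many of these genes moved together. The 8-letter motif TGATGNAA, read on either strand, is the core of the element that ATF4 and C/EBP factors are known to bind. It was looked for from 250 bases before to 50 bases after the annotated start of each gene in the RefSeq promoter sequences of assembly GRCr8. Windows of 16 of the 19 cytosolic genes were used, and the counts do not cover the other 3, which all rose over 4 to 8 h. The motif was present in 6 of these 16 genes (37.5%), each with 1 window, and in 0 of 16 mitochondrial genes, which have 18 windows, beside 1331 of the 33468 windows used (3.98%). The 5 measured holders were Cars1, Iars1, Nars1, Tars1 and Yars1, and the unmeasured one was Mars1. All 5 rose with gastrin over 4 to 8 h, with a median change of 0.58. Of the 9 measured cytosolic genes with a window and no match, 5 rose, with a median of 0.34. A match describes letters and not a bound site. The matched stretches are printed 5′ to 3′ along the strand of the gene, with the motif or its reverse complement in capitals, and positions are counted from the annotated start.
Cars1, chr1:208225334-208225363, minus strand, motif at 18 to 25: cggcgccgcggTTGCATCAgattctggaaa
Iars1, chr17:15193658-15193687, minus strand, motif at -24 to -17: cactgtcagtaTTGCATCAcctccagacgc
Mars1, chr7:65023752-65023781, minus strand, motif at -17 to -10: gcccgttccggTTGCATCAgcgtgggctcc
Nars1, chr18:60275778-60275807, minus strand, motif at -14 to -7: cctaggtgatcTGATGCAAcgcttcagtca
Tars1, chr2:62114811-62114840, minus strand, motif at -27 to -20: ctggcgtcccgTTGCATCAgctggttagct
Yars1, chr5:146820190-146820212, plus strand, motif at 39 to 46: acgagctcagcTGATGCAAcctg
In all 6 genes the copy reads TGATGCAA or its reverse complement TTGCATCA.

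**Figure D2:**
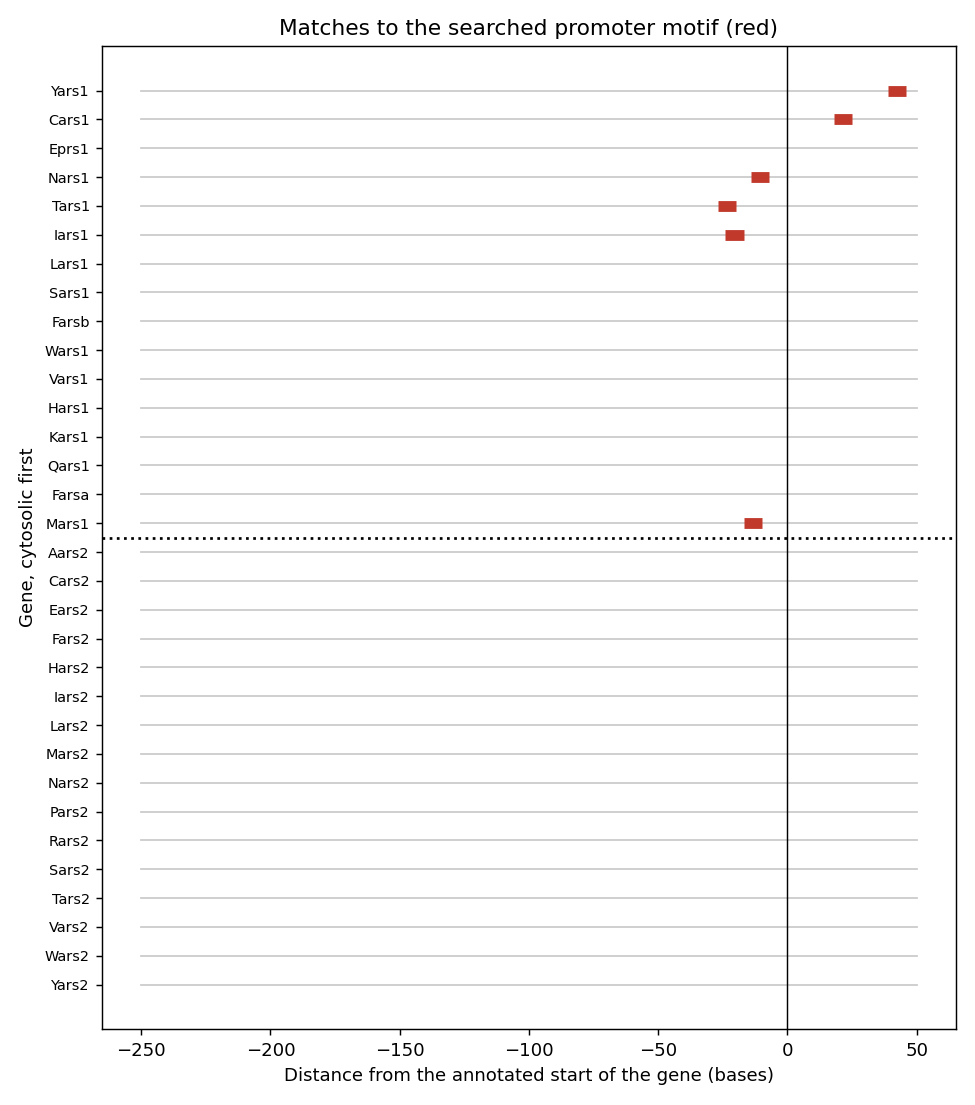
Each grey line is the searched window of 1 gene, from 250 bases before to 50 bases after its annotated start, and red bars mark matches to the motif on either strand. Matches lie in 6 cytosolic genes above the dotted line, within 30 bases of the start in Cars1, Iars1, Mars1, Nars1 and Tars1 and farther from it in Yars1, and in 0 of the mitochondrial genes below it.

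The number of cytosolic genes that rose differed between times. At 0.25 h, where 0% of probes passed, none of the 28 genes passed, and at an unadjusted p under 0.05 the count was also 0. Over 0.5 to 2 h only Cars1 (0.28 ± 0.077) and Tars1 (0.19 ± 0.054) rose, with limma adjusted p-values of 0.0179 and 0.021, while 9.21% of probes passed, 4.68% upwards, and the cytosolic median was 0.003. Without the pairs that hold an array standing apart, these values were 0.02 and 0.14 and neither passed. The count of cytosolic genes that passed was also 0 without batch 2 or batch 3. It was 4 without batch 4, all higher, and 4 without batch 5, 3 higher and 1 lower. In these 4 fits 1.02%, 0.95%, 13.7% and 13.7% of probes passed. By single time, the number of cytosolic genes that rose was 4 at 2 h, 10 at 4 h and 11 at 6 h, where 2.41%, 3.48% and 2.39% of probes rose. The 4 at 2 h were Aars1, Cars1, Iars1 and Nars1. Each 2 h pair holds an array that stood apart, the control in batches 4 and 5 and the gastrin sample in batches 2 and 3. Without such arrays, the values of these 4 genes over 0.5 to 2 h were -0.13, 0.02, -0.06 and 0.02. No 2 h pair enters these values, so they cannot check the changes at 2 h. At 8 h 0 passed, with 0.946% of probes passing and only 2 pairs, although the cytosolic median was 0.40. The median was 0.18 at 10 h and 0.006 at 14 h.

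The difference between windows was tested in the same fit. The change at 4 to 8 h exceeded that at 0.5 to 2 h for 10 cytosolic genes, Yars1 by 0.66 ± 0.115 and Sars1 by 0.52 ± 0.096, with limma adjusted p-values of 0.000371 and 0.000667, where 2.68% of probes passed upwards and 2.97% downwards. Vars2, for valine, was the only mitochondrial gene to pass, at -0.32 ± 0.089, and it turned to 0.27 in batches 4 to 6 alone. Without batch 2 the count of cytosolic genes was 0, where 0.813% of probes passed, and without batch 3 it was also 0, where 0.559% passed. The cytosolic medians in these fits were 0.35 and 0.37. In batches 4 to 6 alone the median difference of the cytosolic genes was 0.09, beside 0.35 in all batches, and Yars1 and Sars1 had values of 0.11 and 0.08 and did not pass. There Eprs1, Lars1 and Rars1 passed, at 1.16, 0.50 and 0.37. The early window of these batches holds the 2 h controls that stood apart. Over 1 and 2 h, in the fit with cycloheximide, gastrin changes were -0.62 for Eprs1, -0.05 for Lars1, -0.15 for Rars1 and -0.33 for Vars2. The part of those controls in the differences between windows was not tested. From 4 to 8 h to 10 and 14 h, the change of Cars1, Iars1, Tars1 and Yars1 fell by 0.55, 0.53, 0.44 and 0.62, where 0.555% of probes passed downwards. Without the pairs that hold arrays standing apart, only Iars1 passed, with values from -0.62 to -0.40 for the other 3. Without batch 2 or without batch 3 the count was 0, where 1 and 13 of all 22523 probes passed in either direction.

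**Figure D3:**
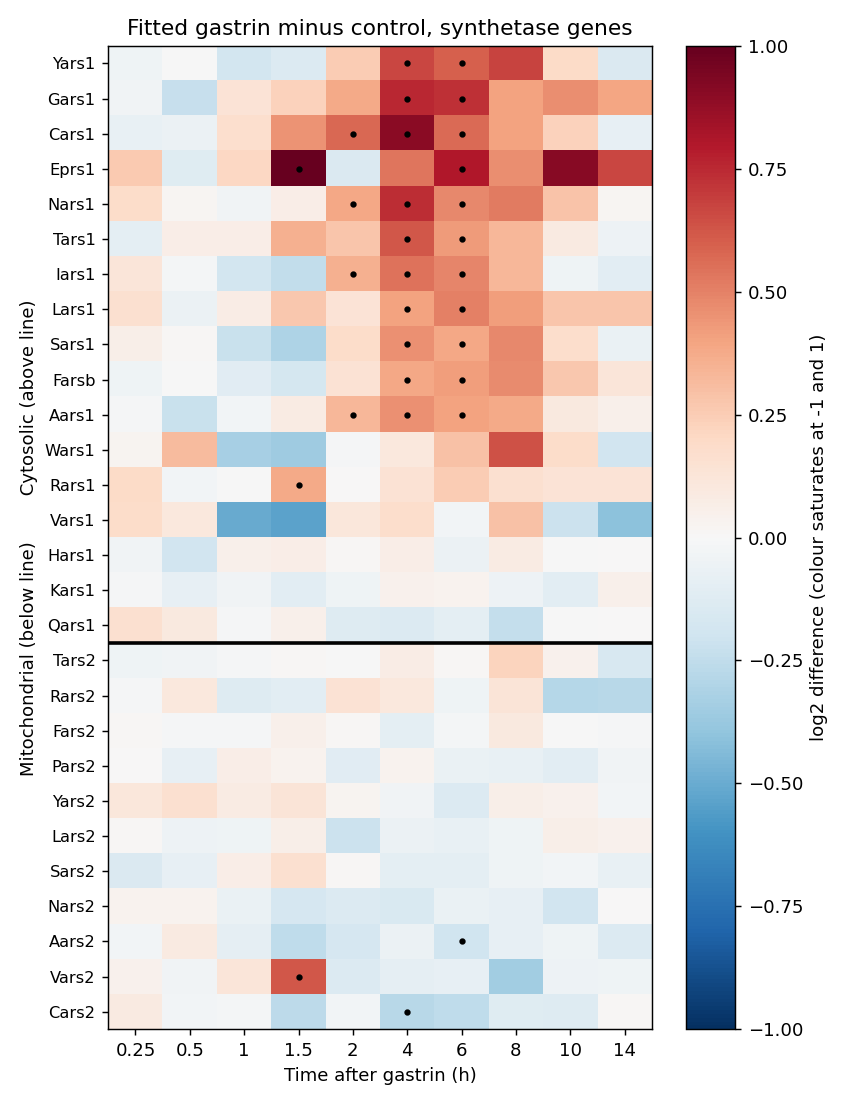
Colour gives the fitted gastrin minus control log2 difference of each measured gene at each time, with cytosolic genes above the line and mitochondrial genes below it, and a dot marks a limma adjusted p under 0.05. Dots gather at 4 h and 6 h in the upper block, with 10 and 11 cytosolic genes, while the lower block holds 1 dot at each of 1.5, 4 and 6 h.

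Eprs1, Gars1 and Lars1 were the members that rose over 10 and 14 h, by 0.79 ± 0.173, 0.43 ± 0.115 and 0.28 ± 0.072, where 3.78% of probes rose, 3.74% fell and the limma adjusted p-values were 0.00436, 0.0197 and 0.016. Eprs1 moved with the arrays that stood apart. Its controls at 2 h were at 8.47 and 8.42 in batches 2 and 3 but at 10.12 and 9.93 in batches 4 and 5, the controls that define the axis. The valyl-tRNA synthetase gene Vars1 ran the other way there, with 11.62 and 11.66 against 10.96 and 10.60. At 10 h the Eprs1 gastrin samples were at 9.88 and 9.05, and the one at 9.88 was on an array that stood apart, beside controls at 8.54 and 8.56. Without the pairs that hold such arrays, the Eprs1 change over 10 and 14 h was 0.58, and the limma adjusted p was 4.46e-05. Lars1 also passed there, at 0.30, and Gars1 did not, at 0.40 with a limma adjusted p of 0.109. With the array score as covariate, Eprs1 passed and Gars1 and Lars1 did not. Of the 3 genes, 0 passed without batch 2 and 1 without batch 1 or batch 3, where 0.408%, 6.46% and 1.41% of probes passed. At 1.5 h, where both gastrin arrays stood apart and 3.31% of probes rose, Eprs1, Rars1 and Vars2 rose, by 1.14, 0.38 and 0.62.

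**Figure D4:**
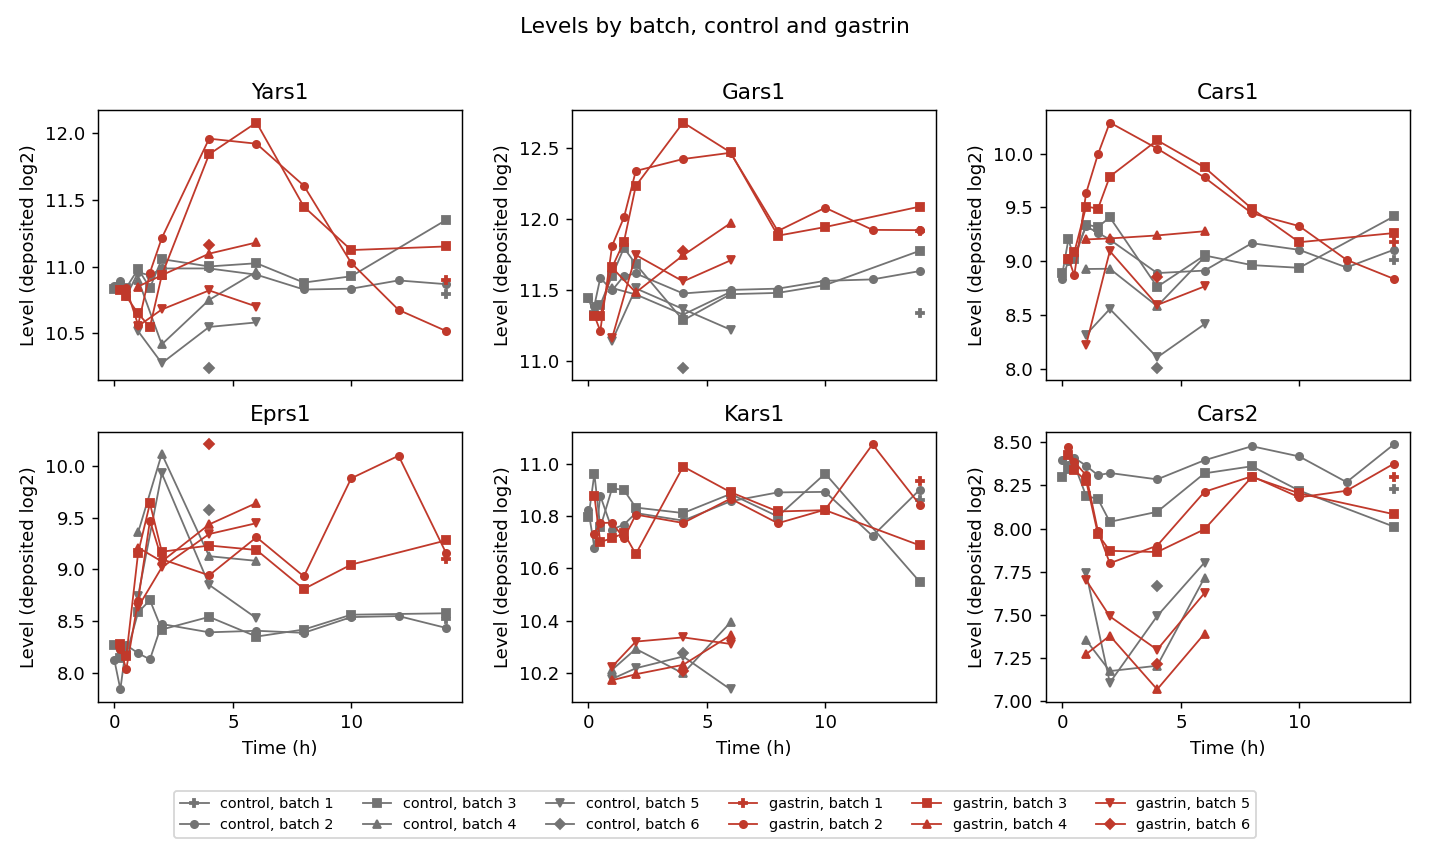
Levels in deposited log2 units over time for 6 genes, with controls in grey, gastrin samples in red and a marker for each batch. Gastrin samples of Yars1, Gars1 and Cars1 in batches 2 and 3 climb from 1 to 2 h and peak between 2 and 6 h, Kars1 and Cars2 separate by batch, and the Eprs1 controls of batches 4 and 5 peak at 2 h.

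The size of the gastrin effect differed between batches. Across the pairs at 4 to 8 h, the median difference over the 17 cytosolic genes lay between 0.39 and 0.65 in batches 2 and 3 and between 0.12 and 0.45 in batches 4 to 6. At 4 and 6 h, 8 cytosolic genes had a smaller or more negative change in batches 4 to 6, where 4.58% of probes passed the test of this difference, 2.35% downwards. Over 1 and 2 h, 20.8% of probes and 11 members passed. There the 2 h controls of batches 4 and 5 and the gastrin arrays of batches 2 and 3 stood apart. At 4 and 6 h the difference was -0.54 ± 0.082 for Nars1. Its change was 0.77 over 4 to 8 h in batches 2 and 3 alone and 0.36 over 4 and 6 h in batches 4 to 6 alone. For Vars1 the difference was -0.63 ± 0.102, with changes of 0.37 in batches 2 and 3 alone and -0.22 in batches 4 to 6 alone. Lars1 and Eprs1 had nearly equal values in both, 0.45 and 0.44 for Lars1 and 0.65 and 0.61 for Eprs1, and were not among the 8. The batch groups were measured at partly different times, and what sets them apart was not tested.

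Cycloheximide alone lowered most cytosolic synthetase genes over 4 and 6 h. Over 4 and 6 h, 10 of 17 cytosolic genes fell and 0 rose, with a median of -0.30, and 2 of 11 mitochondrial genes rose and 0 fell, with a median of 0.10. Cycloheximide changed much of the transcriptome in that window, since 25.5% of all probes passed, 12.3% upwards and 13.3% downwards. The median change was -0.011. Of the 11261 probes brighter than the median probe, tested on their own, 49.2% passed, 2527 upwards and 3018 downwards. The 2 of 11 mitochondrial genes that rose were close to these shares of probes that rose. The number of cytosolic genes that fell was 4 without batch 4, 4 without batch 5 and 9 without batch 6. In these fits 2408, 1445 and 2640 of all 22523 probes fell.

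Kars1, which did not pass with gastrin, had the largest fall. At 4 h its cycloheximide levels in batches 4 to 6 were 9.49, 9.79 and 9.66, beside controls at 10.20, 10.26 and 10.28, and the groups did not overlap. The change was -0.62 ± 0.059 with a limma adjusted p of 4.22e-08, and all 5 pairs at 4 and 6 h were below zero. Yars1 at 4 h was at 9.69, 10.06 and 10.14 with cycloheximide and at 10.75, 10.55 and 10.24 without, and changed by -0.52 ± 0.11, with a limma adjusted p of 0.000877. Wars1, Sars1, Vars1, Qars1, Cars1 and Gars1 fell by 0.60, 0.56, 0.55, 0.43, 0.43 and 0.38, and Nars1 and Lars1 by 0.30 and 0.19. Aars1, Rars1, Eprs1 and Hars1 had values above zero, 0.10, 0.15, 0.08 and 0.01, and did not pass. By single time Eprs1 was at -0.34 at 4 h and at 0.51 at 6 h, and passed at neither.

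The mitochondrial genes that rose were Rars2 (arginine) and Lars2 (leucine). Rars2 at 4 h was at 9.53, 10.16 and 10.22 with cycloheximide and at 9.06, 9.68 and 9.34 without, so its groups overlapped while each pair was higher with the inhibitor. Its change was 0.53 ± 0.095 and that of Lars2 was 0.32 ± 0.053, with limma adjusted p-values of 0.000147 and 7.1e-05, and all 5 pairs of each were above zero.

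Over 1 and 2 h, 5 cytosolic genes fell (Eprs1, Cars1, Rars1, Gars1 and Kars1) and 4 mitochondrial genes rose (Rars2, Cars2, Yars2 and Nars2), where 6.85% of probes fell and 6.55% rose. These values rest on the 2 h controls of batches 4 and 5, which stood apart. Without the 2 h arrays only Eprs1 passed, at -0.52 with a limma adjusted p of 0.0312 (0.293 at 1 h in the fit that keeps the 2 h arrays), and Cars2 turned from 0.39 to -0.06. Without batch 4, 5 or 6 in turn, 2, 3 and 5 cytosolic and 1, 0 and 3 mitochondrial genes passed. In these fits 6.31%, 3.4% and 12.9% of probes passed. The log2 changes at 4 and 6 h use no 2 h array, but their SEs and adjusted p-values come from a fit that includes those arrays.

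Gastrin moved none of the 28 genes past the test when cycloheximide was present. Over 4 and 6 h the cytosolic changes lay between -0.25 and 0.33 with a median of 0.04, where 783 probes (3.48%) passed, and at an unadjusted limma p under 0.05 the count was 3 of 17 (Lars1 at -0.16, Vars1 at 0.33 and Wars1 at 0.27). In the same batches and times without the inhibitor, 6 cytosolic genes rose, Cars1, Eprs1, Gars1, Lars1, Nars1 and Tars1, beside 1.74% of probes, with a median of 0.29. Over 1 and 2 h none passed with the inhibitor, where 0.0799% of probes did, and 1 cytosolic gene had an unadjusted limma p under 0.05. The unadjusted counts cannot be set against these shares of probes, which use the adjusted threshold. Gars1 at 4 h stood at 10.78, 11.10 and 10.28 with both agents and at 11.02, 11.02 and 10.44 with cycloheximide alone.

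An effect that passes in 1 condition and not in the other was tested as an interaction. Over 4 and 6 h, 0.369% of probes passed, 0.155% downwards, and among members these were Gars1, at -0.67 ± 0.13, and Lars1, at -0.61 ± 0.085, with limma adjusted p-values of 0.0177 and 0.002. For the other 26 members the test of the difference did not pass, with cytosolic values from -0.85 (Eprs1, limma adjusted p = 0.117) to 0.55. The Gars1 interaction missed the threshold without batch 4 and without batch 5, at limma adjusted p-values of 0.388 and 0.49. So did Lars1, at 0.131 and 0.415. In these fits 0.0533% and 0.00444% of probes passed. Directly compared within gastrin-treated cells over 4 and 6 h, cycloheximide lowered 13 cytosolic genes and raised 6 mitochondrial ones, where 12.7% of probes fell and 11.7% rose. Gars1 fell furthest, by 1.06 on the log2 scale (SE 0.092), and Rars2 rose most, by 0.78 ± 0.095. The mitochondrial count was 5, 2 and 6 without batch 4, 5 and 6, where 20.2%, 13.3% and 22.3% of probes passed.

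**Figure D5:**
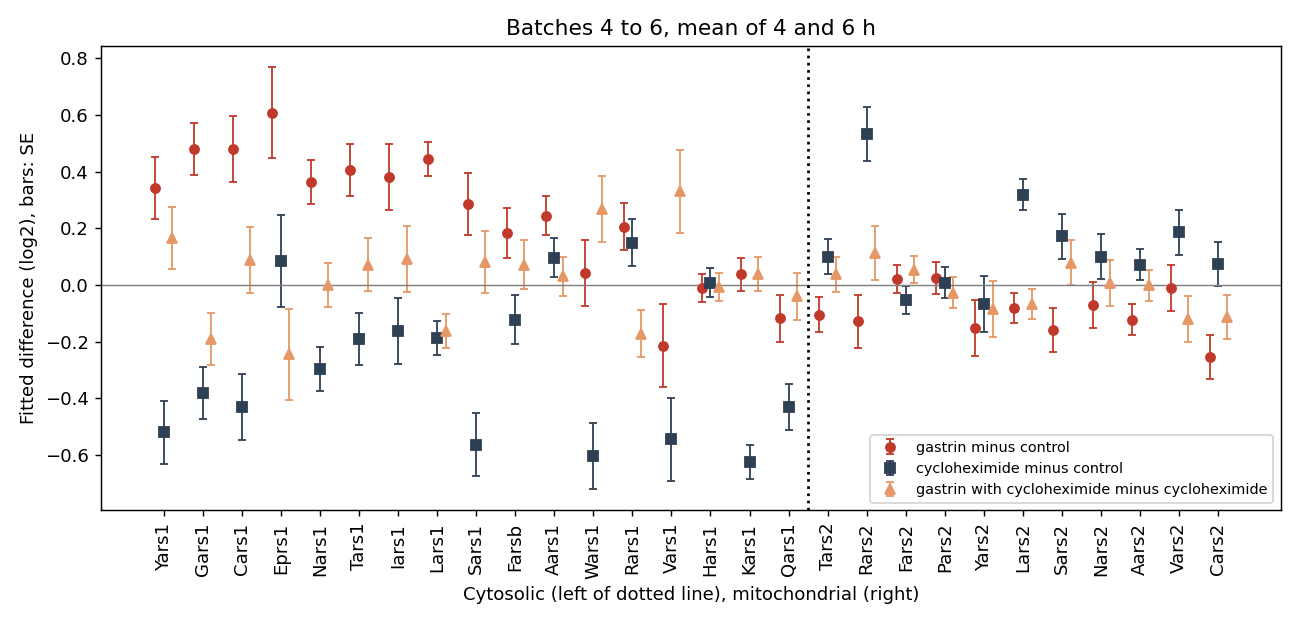
Fitted log2 differences with SE bars in batches 4 to 6, averaged over 4 and 6 h, for gastrin minus control (red circles), cycloheximide minus control (dark squares) and gastrin with cycloheximide minus cycloheximide (orange triangles). For cytosolic genes such as Gars1, Cars1 and Nars1 the circles lie above zero, the squares below it and the triangles nearer to it, while the squares of Rars2 and Lars2 lie above zero at 0.53 and 0.32.

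Untreated cells also drifted. From the mean of 0, 0.25 and 0.5 h to that of 8, 10 and 14 h, the controls of batches 2 and 3 gained in 6 cytosolic genes, Qars1 (0.55 ± 0.124), Eprs1 (0.35 ± 0.07), Iars1 (0.27), Lars1 (0.26), Sars1 (0.23) and Aars1 (0.20), where 5.78% of probes rose. Without batch 2 the count was 2, and 5 without batch 3, in fits of a single batch that take neighbouring times as repeats. In these fits 2.7% and 9.12% of probes passed, beside 12.4% with both batches. Yars2 gained 0.24 and Rars2 fell by 0.19, where 6.64% of probes fell, and 0 mitochondrial genes passed without batch 2. At 4 and 6 h the genes above the start were Eprs1, Sars1 and Wars1, by 0.29, 0.33 and 0.28, where 1.85% of probes rose. Each gastrin value is a difference from controls of the same time and so leaves this drift out.

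Genes around the synthetases were counted from lists drawn up with earlier results of these data known. Of 22 measured reference genes of the ATF4 pathway, 16 rose with gastrin over 4 to 8 h and 0 fell, with a median of 0.61, where 4.98% of all probes rose, led by Cebpb, Trib3, Atf5 and the asparagine synthetase gene Asns at 1.62, 1.43, 1.29 and 1.13. In batches 4 to 6 over 4 and 6 h, 10 of the 22 rose with gastrin, with a median of 0.53, and 4 rose with gastrin when cycloheximide was present, with a median of 0.10, where 1.74% and 2.17% of probes rose. The interaction passed for 3 of them, all lower. Over 0.5 to 2 h, 11 of the 22 rose and 0 fell, where 4.68% of probes rose. Chac1, Trib3, Ppp1r15a and Ddit3 were at 1.60, 1.33, 1.05 and 1.00, while the cytosolic synthetase median was 0.003. Without the pairs that hold an array standing apart, 0.422% of probes passed in this window, beside 9.21% with them. Only pairs at 0.5 and 1 h enter the former share. The ATF4 list was not counted without those pairs. Cycloheximide alone over 4 and 6 h raised 7 and lowered 6, where 12.3% of probes rose and 13.3% fell, and Atf4, Cebpb, Ddit3 and Ppp1r15a rose by 1.27, 1.11, 1.03 and 0.96. Of 8 measured scaffold proteins and partners of the synthetases, Aimp1, a scaffold of the complex, rose by 0.20 with gastrin and Mtfmt, the mitochondrial methionyl-tRNA formyltransferase, fell by 0.18. Cycloheximide alone lowered 7 of the 8 over 4 and 6 h, Aimp1 by 1.04, where 13.3% of probes fell. Of 13 acinar markers, 7 rose and 1 fell with gastrin over 4 to 8 h, with a median of 0.13, where 4.98% of probes rose and 5.33% fell. Of 10 neuroendocrine markers Syp and Chgb rose, by 0.24 and 0.20, and of 2 ductal markers Krt19 fell by 0.33. Of 6 fibroblast and 3 immune or endothelial markers 0 passed. The part of these markers in the synthetase result was not tested.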

How the data were processed

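Values for 22523 probes were deposited on a log2 scale. The submitters' processing notes name lumi 2.4.0. The sources used here do not state whether the scale is plain log2 or variance-stabilised, and for dim probes a difference need not equal a log2 ratio. Detection calls and scanner signals were not used here. Gene names came from the platform annotation, and promoter sequences from RefSeq (GRCr8), of which 1 window is not reported here. Members, gene lists and tests were chosen with earlier results of these data known.

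Differences were fitted with limma 3.58.1 (lmFit, eBayes) in R 4.3.3, blocking on each batch at each time, and p-values were adjusted by Benjamini-Hochberg across the whole table, with 0.05 as threshold. Gastrin effects were averaged with equal weight over the times of a window. Within a batch, deviations of control and gastrin samples were correlated at 0.629 to 0.923 (17 pairs of groups), and the pairing comes from the batch in the labels. Pairs of a batch at several times were treated as independent. Technical replicates of batch 6 and repeated 1 h arrays were averaged, except that fits with cycloheximide used at 1 h the title series holding all 4 stimuli. The array score is the projection on the mean difference of the 2 h controls of batches 4 and 5 from the other controls of their own batch, and arrays above 0.25 were taken to stand apart. Lists were described by counts and medians, without a test. All members are named, and of other genes at most 4 a list with the largest change past the threshold. The fits were tested on simulated data. Alternatives covered the block, left-out batches and arrays, the array score, dim probes, normalisation, array weights and eBayes options. Precision is limited by how many arrays there are, and protein sequences were not used here.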

Additional observations from a re-analysis of the deposited data

Results flagged for a closer look

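Of 112 groups of pair differences tested for a single distant value, 1 had one, and chance alone gives about 1 in 20. It was Fars2 at 1 h, with -0.096 in batch 5 and 0.011 to 0.02 in the other 3 pairs, on a dim probe.

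Tests of a difference between windows, conditions or batch groups passed for the following genes, as limma log2 differences. The gastrin change at 4 to 8 h minus that at 0.5 to 2 h was 0.371 for Aars1, 0.462 for Farsb, 0.502 for Gars1, 0.482 for Iars1, 0.338 for Lars1, 0.472 for Nars1, 0.522 for Sars1, 0.267 for Tars1, 0.442 for Wars1, 0.663 for Yars1 and -0.316 for Vars2. The change over 10 and 14 h minus that over 4 to 8 h was -0.552 for Cars1, -0.532 for Iars1, -0.442 for Tars1 and -0.622 for Yars1. The gastrin effect with cycloheximide minus that without, over 4 and 6 h, was -0.672 for Gars1 and -0.606 for Lars1.

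The gastrin effect in batches 4 to 6 minus that in batches 2 and 3, over 4 and 6 h, was -0.405 for Aars1, -0.573 for Cars1, -0.484 for Farsb, -0.595 for Gars1, -0.304 for Iars1, -0.536 for Nars1, -0.625 for Vars1, -0.623 for Yars1, -0.35 for Rars2 and -0.329 for Tars2. Over 1 and 2 h, where 20.8% of all probes passed and the 2 h controls of batches 4 and 5 stood apart, it was -1.165 for Eprs1, 0.317 for Iars1, -0.33 for Lars1, -0.32 for Rars1, 0.456 for Sars1, 0.706 for Vars1, 0.386 for Wars1, 0.382 for Yars1, 0.282 for Cars2, -0.315 for Lars2 and -0.554 for Vars2. The gastrin arrays of batches 2 and 3 at 1 and 2 h also stood apart. The part of those controls and gastrin arrays in the 1 and 2 h differences was not tested.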

How the results depend on the processing

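Of the 15 members that passed over 4 to 8 h, all 300 alternative values kept their direction and 32 lost the call. Several alternatives cannot move the averaged change, so the shared direction says little there. The cytosolic median stayed at 0.439 with no block, an additive block, no batch 1, no arrays of high score, and trend and robust options. Gars1, Tars1 and Yars1 passed under all 20 alternatives and Aars2 lost the call under 10. The design blocks on batch and time. With no replicate block, counts of cytosolic genes were 0 over 0.5 to 2 h, 4 over 4 to 8 h, 0 over 10 and 14 h, 1 for 4 to 8 h minus 0.5 to 2 h, 0 for 10 and 14 h minus 4 to 8 h, 2 for cycloheximide alone in both windows and 0 for the interaction. Mitochondrial counts were 0 over 4 to 8 h, 0 between windows and 2 for cycloheximide at 1 and 2 h. In those fits 0.604%, 0.95% and 0.133% of all probes passed over 0.5 to 2 h, 4 to 8 h and 10 and 14 h. For cycloheximide alone 3.7% passed at 1 and 2 h and 13.9% at 4 and 6 h, and for the interaction 0.0222%. With batch as an additive replicate block, cytosolic counts were 1 (0.5 to 2 h), 6 and 0 between windows and 1 (interaction), and mitochondrial counts 1 (4 to 8 h), 0 (4 to 8 h minus 0.5 to 2 h) and 2 (cycloheximide at 1 and 2 h). Batches 2 and 3 alone gave 9 cytosolic (6 higher, 3 lower) and 4 mitochondrial genes (2 higher, 2 lower) over 0.5 to 2 h, where 26.6% of probes passed. They gave 4 mitochondrial over 4 to 8 h (2 higher, 2 lower) and 1 over 10 and 14 h, beside 16.5% and 16% of probes. For 4 to 8 h minus 0.5 to 2 h they gave 3 mitochondrial, beside 16.3% of probes. For 10 and 14 h minus 4 to 8 h they gave 11 cytosolic and 2 mitochondrial, beside 8.46%. Batches 4, 5 and 6 alone gave 2 mitochondrial (0.5 to 2 h), 1 (4 to 8 h) and 3 cytosolic between windows, and Vars2 turned to 0.27. In these fits 3.45%, 7.25% and 4.28% of probes passed. With the array score as covariate, cytosolic counts were 1, 1, 3 and 1 (0.5 to 2 h, 10 and 14 h, cycloheximide at 1 and 2 h, interaction), and mitochondrial 1 and 1 (cycloheximide at 1 and 2 h, untreated cells). Without arrays of high score, 0 cytosolic genes passed over 0.5 to 2 h and 1 for 10 and 14 h minus 4 to 8 h, and 0 mitochondrial for 4 to 8 h minus 0.5 to 2 h. Over 0.5 to 2 h that fit keeps only pairs at 0.5 and 1 h. Without the 2 h arrays, cycloheximide at 1 and 2 h gave 1 cytosolic and 0 mitochondrial genes, and Cars2 turned to -0.055. The filter on dim probes, trend and robust options, array weights, the numbered 1 h series, the mean of all probes and batch means moved some counts of 0 to 4 by over 1.5 times, to 0, 1 or 8, and others by less. Leaving out 1 batch gave cytosolic ranges of 0 to 4, 10 to 13 and 0 to 3 in the 3 gastrin windows after 0.25 h, 0 to 12 and 0 to 6 between windows, 2 to 5 and 4 to 9 for cycloheximide alone, 10 to 12 within gastrin, 0 to 2 for the interaction and 2 to 5 in untreated cells. Mitochondrial ranges were 0 to 1, 0 to 2, 0 to 1, 0 to 1 and 0 to 1, 0 to 3, 2 to 2, 2 to 6, 0 to 0 and 0 to 2. At 0.25 h, and with gastrin within cycloheximide, counts were 0 throughout. Causes were not tested. The share of all probes that passed also changed between fits. Over 4 to 8 h it was 10.3% in the main fit, 3.76% without batch 2 and 3.36% without batch 3. Batch means were run for the 4 gastrin windows only. Quantile normalisation moved no count by over 1.5 times.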

Other observations

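Of 59 genes of mitochondrial ribosomal proteins, 3 rose and 5 fell with gastrin over 4 to 8 h (limma, adjusted p under 0.05), with a median log2 change of 0.02, where 4.98% of all probes rose and 5.33% fell. The extremes were Mrps18c at 0.30 and Mrpl36 at -0.26. Over 10 and 14 h, 8 rose and 1 fell, where 3.78% of probes rose and 3.74% fell, and Mrpl17, Mrpl52 and Mrps24 rose by 0.72, 0.44 and 0.39. Of 6 mitochondrial elongation and initiation factors, Mtif2 fell by 0.17 over 4 to 8 h, and it rose by 0.62 with cycloheximide alone over 4 and 6 h. Of 5 cytosolic elongation factors, Eef1a2 rose by 0.14 with gastrin over 4 to 8 h. With cycloheximide alone over 4 and 6 h, Eef1d fell by 0.33 and Eef1a2 rose by 0.31.

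Of 31 genes of transfer RNA synthesis and maturation, 3 rose and 3 fell with gastrin over 4 to 8 h, with a median of -0.02, where 4.98% of probes rose and 5.33% fell. Xpot, which exports transfer RNA from the nucleus, rose by 0.40 ± 0.054, while Tsen15, of the splicing endonuclease for transfer RNA, and Rpp40, of RNase P, fell by 0.38 and 0.33. With cycloheximide alone over 4 and 6 h, 5 rose and 6 fell, where 12.3% of probes rose and 13.3% fell, and Brf2, a factor for RNA polymerase III, rose by 1.23 ± 0.11.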
